A study of Mus musculus with 2 samples.

Results

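Sox genes encode transcription factors that bind DNA through an HMG domain. The arrays used here carried 12 probes for 9 Sox genes outside the SOXC group (Sox2, Sox5, Sox6, Sox7, Sox9, Sox13, Sox15, Sox18 and Sox21), chosen by gene name among the 55681 probes, under 34821 names, that are not control spots. RNA from the epidermis of 2 littermate pairs of FVB/N mouse pups at postnatal day 4.5 was compared, 1 array per pair. In each pair the SOX11-induced pup carried K14-rtTA and TRE-Sox11-FLAG, and its control littermate carried K14-rtTA alone. Both genotypes therefore carried the doxycycline-dependent activator rtTA under the keratin 14 promoter, and both received doxycycline (Dox) for 12 h before the dorsal epidermis was peeled off with dispase. TRE-Sox11 was made by pronuclear injection, and the methods describe the pups of a pair as matched for gender. Control RNA carried the dye Cy3 and SOX11-induced RNA the dye Cy5 on both arrays per the labels, so for any 1 probe the genotype and a bias of the dye cannot be told apart. The methods mention a colour swap, which the labels do not show.

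The family is divided into groups by sequence similarity. SOX2 and SOX21 belong to the SOXB group, in which SOX2 activates transcription and SOX21 is known as a repressor. SOX5, SOX6 and SOX13 form the SOXD group, which has no activation domain of its own, and SOX9 belongs to SOXE, SOX7 and SOX18 to SOXF, and SOX15 to SOXG. In skin, SOX9 marks the outer root sheath and the stem cells of the hair follicle, SOX21 is made in the cuticle of the hair shaft, SOX2 in Merkel cells and some dermal papillae, and SOX18 in endothelium and the developing dermal papilla. SOX4, SOX11 and SOX12, the SOXC group, can share DNA motifs and partner proteins with these factors.

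None of the 12 probes passed an adjusted p of 0.05 in limma, and none was called by the threshold of the study's methods, which also asks for a log2 ratio past 1.5 in either direction. Of all 55676 probes tested, 4.39% passed the adjusted p, among the 21782 probes above background 9.99% did, and 0.453% were called. At an unadjusted p of 0.05 there were 4 of the 12 probes (the first Sox5 probe, Sox6, Sox13 and the first Sox21 probe), beside 21.1% of all probes. In a fit of the 21782 probes above background alone, 7090 lay under that p, among them 3 of the 7 Sox probes above background. The count of 0 changed with 3 of the settings tried: 1 probe passed with a normexp offset of 50 (7.91% of all probes), 3 with an intensity trend and robust prior (8.33%) and 5 with median centring in place of loess (33.2%). The median log2 ratio of SOX11-induced over control was -0.18 over the 12 probes (0.00 in pair 1 and -0.20 in pair 2), against 0.01 over all probes tested, whose quartiles were -0.17 and 0.19. Over the 7 probes above background it was -0.30 (-0.01 in pair 1 and -0.24 in pair 2), against 0.04. Without the first Sox5 probe, whose sequence is a repeat, it was -0.22 (0.04 in pair 1 and -0.37 in pair 2). The ratio was higher than 0 in both pairs or lower than 0 in both pairs for 11 of 12 probes, 4 of them at background in every channel, and for 6 of the 7 above background, Sox9 being the exception. The same held for 65.2% of all probes tested and 74.0% of those above background. With 2 pairs an exact sign-flip test of a single probe cannot give a two-sided p below 0.5, so the p-values rest on a spread that limma shares across probes.

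**Figure D1:**
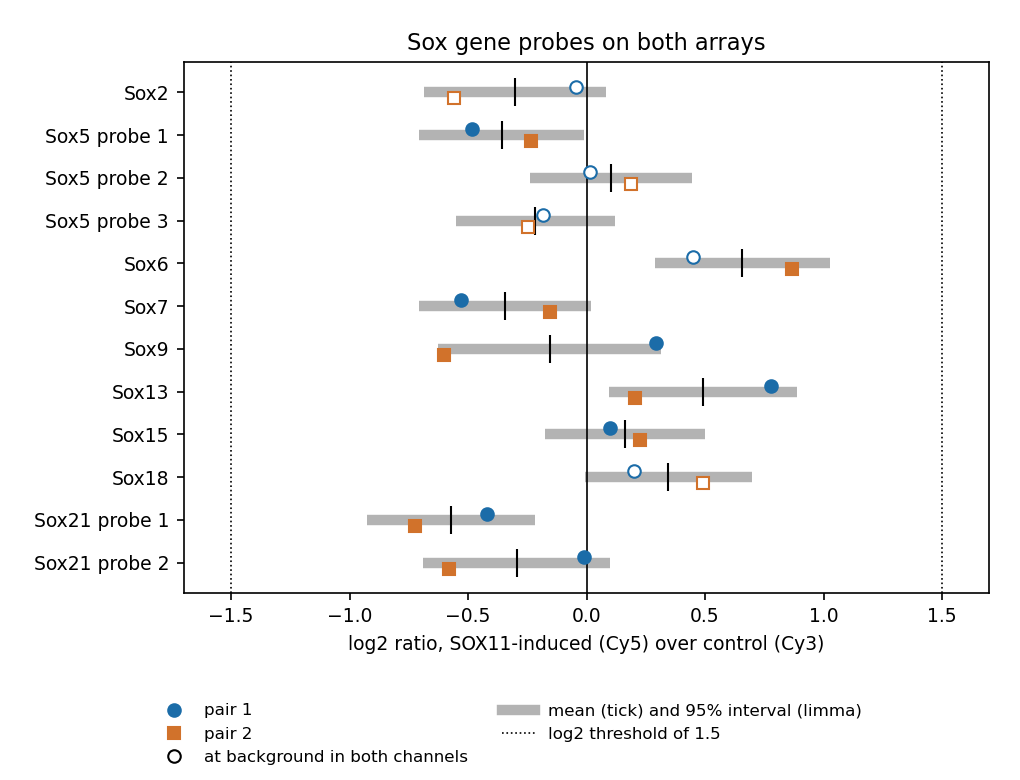
Log2 ratio of SOX11-induced over control for each of the 12 Sox probes (horizontal axis), with a circle for pair 1 and a square for pair 2, open where neither channel was well above background on that array. The tick and grey bar give the mean and its 95% interval from limma, and the dotted lines at 1.5 and -1.5 mark the threshold of the methods. Of the probes drawn with filled symbols for both pairs, the Sox9 points alone lie on opposite sides of 0.

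The probes fell into 3 states by the scanner software's test of spot against background. There were 7 probes of 6 genes (Sox5, Sox7, Sox9, Sox13, Sox15 and both Sox21 probes) well above background in all 4 channels (2 dyes on 2 arrays). The Sox6 probe was so in 1 of 4 channels. The remaining 4 probes (Sox2, the other two Sox5 probes and Sox18) were not well above background in any channel. All probes tested were counted by a looser rule, at least 1 channel on each array, which put the same 7 Sox probes above background. By this rule 21782 were above background, 2305 above in part and 31589 not above in any channel. In scanner units, the brightness of a probe is not comparable with that of another probe, nor between the dyes, so tests are made only on the corrected log2 ratio within a probe. Readings were not scaled between the arrays, whereas the summed normalised brightness of gene lists was. Both are given side by side with no test.

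**Figure D2:**
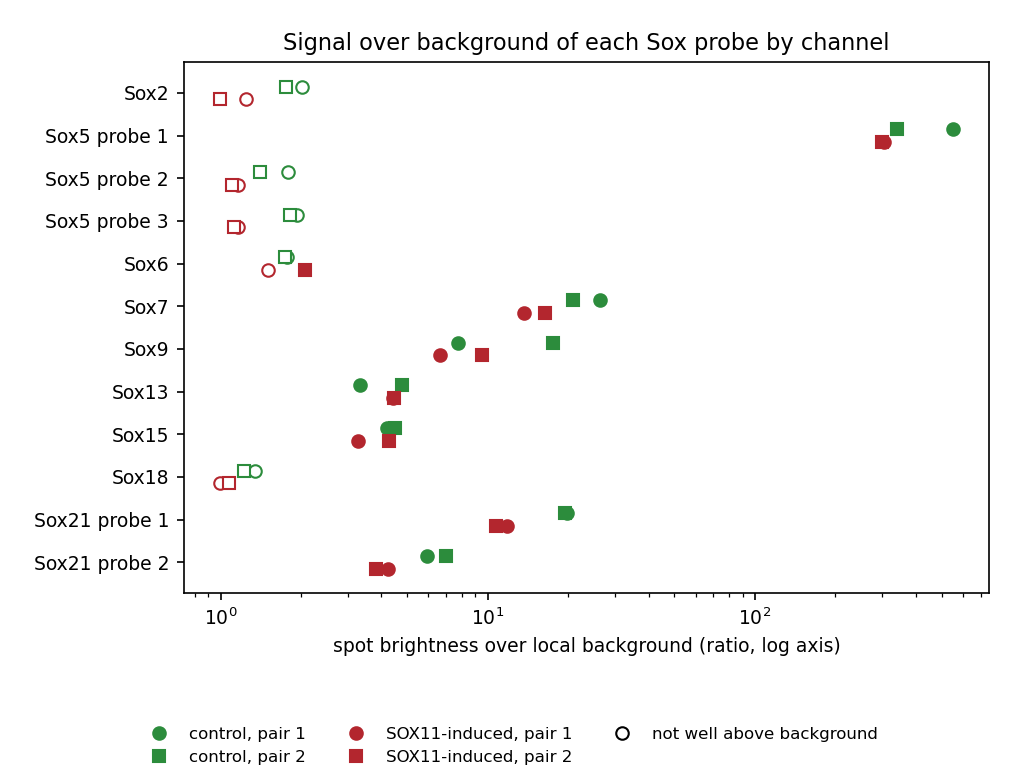
Spot brightness divided by local background for each Sox probe in each channel (log axis), green for control and red for SOX11-induced, circles for pair 1 and squares for pair 2. Open symbols were not well above background, which covers all 4 channels of Sox2, Sox18 and Sox5 probes 2 and 3, and 3 of 4 channels of Sox6.

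Of the SOXB genes, Sox21 was measured by 2 probes of the same strand on chromosome 14, both well above background. On the first (chr14:118633351-118633410, mm9 as are all positions here), the control channel read 436 and 448 scanner units in pairs 1 and 2, and the SOX11 channel read 652 and 610. The corrected log2 ratios were -0.42 and -0.72, with a mean of -0.57 ± 0.21 (SD, n = 2) and an adjusted p of 0.0773 in limma. Both pairs lay lower in the SOX11-induced pup, but the probe did not pass over all probes tested. Its mean stood at percentile 4.67 of the probes above background. On the second probe (chr14:118633788-118633847), the control channel read 130 and 161 and the SOX11 channel 250 and 236, with log2 ratios of -0.01 and -0.58 (mean -0.30 ± 0.40, limma adjusted p = 0.373). Both probes gave ratios below 0 in each pair, the second by almost nothing in pair 1.

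Both values depended on the loess correction, which removes a trend of the ratio with brightness. With each array centred on its median in place of loess, the median log2 ratio of probes above background moved from 0.04 to 0.51, and the Sox21 probes gave -0.0030 and 0.14. Relative to that shifted median they lay at -0.51 and -0.36, and relative to the median after loess at -0.61 and -0.33.

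The hair shaft and cuticle list, the compartment in which Sox21 is made, had 20 of 20 genes above background. None passed the adjusted p, beside 9.99% of all probes above background. The list's median log2 ratio was 2.00 in pair 1 and -0.21 in pair 2, with 0.92 for the means. The summed normalised brightness of this list was 42271 in the control and 194637 in the SOX11-induced pup of pair 1, and 354856 and 288413 in pair 2. The part of the follicle content of the sheets in the Sox21 ratios was not tested. In bulk tissue, fewer cells of a type and less RNA per cell cannot be told apart.

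Sox2, the other SOXB gene, was at background throughout. Its probe (chr3:34550773-34550832) read 40.3 and 45.8 in the control channel against 65.0 and 57.3 in the SOX11 channel, where the local background was 52.0 and 57.5. The log2 ratios were -0.04 and -0.56 (mean -0.30 ± 0.37, limma adjusted p = 0.350), and no fold is given for a probe at background in both groups. Of the Merkel cell list, 9 of 10 genes were on the array and 6 were above background. None passed, beside 9.99% of all probes above background. The median log2 ratio was 0.21 over the 9, and over the 6 above background 0.31 in pair 1 and 0.09 in pair 2. The keratins Krt8, Krt18 and Krt20 and the genes Insm1, Syp and Rab3c were those above background, while the transcription factors Atoh1, Gfi1 and Isl1 were not above it in any channel. The summed normalised brightness of the list was 910 and 1376 in the controls and 1319 and 1397 in the SOX11-induced pups.

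Sox5, of the SOXD group and known for its role in cartilage and in pigment cells, was measured by 3 probes, 1 above background in every channel and 2 in none. The first probe lies at chr6:143776945-143776971, a stretch of 27 bases for a probe of 60, probe 2 at chr6:143781520-143781579 and probe 3 at chr6:143787982-143788041, all on the minus strand. The first 30 bases of each probe are printed here to show that probe 1 is a repeat and the others are not. Capitals mark every copy of the 9-base unit GGAGGAGGA, of which probe 1 shows 4, overlapping in pairs.

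Sox5 probe 1: GGAGGAGGAGGAagaGGAGGAGGAGGAaga

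Sox5 probe 2: ttacaagcaaaaacgtcatcaagaagaaga

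Sox5 probe 3: ctgggcccatgggcaaattcaatcagatgc

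The first probe consists of purines (A and G) over its whole length, while probes 2 and 3 hold 66.7% and 68.3% purines. The unit GGAGGAGGA, searched on the probe strand only, occurs in 92 of the probes tested (0.165%). The first probe read 11293 and 8199 in the control channel and 17684 and 17157 in the SOX11 channel, between 298 and 551 times its local background over the 4 channels. Probe 2 read 39.2 and 36.7 in the control channel and 67.4 and 64.8 in the SOX11 channel. Probe 3 read 42.6 and 43.7 in the control channel and 64.8 and 63.1 in the SOX11 channel. Probes 2 and 3 lay at most at 1.94 times their local background and were not well above it in any channel.

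The log2 ratios of the first Sox5 probe were -0.48 and -0.24, with a mean of -0.36 ± 0.17 (limma adjusted p = 0.224). Under median centring the mean was 0.38, and it lay at -0.13 relative to the shifted median of probes above background. The second probe gave log2 ratios of 0.01 and 0.19 (mean 0.10 ± 0.12) and the third -0.19 and -0.25 (mean -0.22 ± 0.04), with adjusted p of 0.747 and 0.447 in limma. Both signs turned when the median spot brightness replaced the mean, to -0.06 and 0.06. No direction can therefore be given for Sox5 from the probes whose sequence is not a repeat.

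Apart from the Sox5 probe, the array held 22 probes made of purines alone, listed under 17 names, among them Cplx2, Vash1, Gcm1, F10 and Pigr. The control channel exceeded background in both pairs for 21 of 22, against 34.8% of all probes tested. Their median log2 ratio was -0.41, with quartiles of -0.48 and -0.34, and the range ran from -0.82 to -0.26. All 22 were lower in both pairs, against 33.1% of all probes above background, and 3 of 22 passed the adjusted p, beside 9.99% of probes above background. The first Sox5 probe lay inside this range, with 15 of the 22 lower than it. The 77 probes that hold GGAGGAGGA together with pyrimidines elsewhere had a median log2 ratio of -0.19. Under median centring the median of the 22 probes turned to 0.26, below the median of 0.51 of all probes above background. These probes share sequence and are not independent, so the counts are a description of the array. They were singled out after the Sox5 sequence had been seen.

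**Figure D3:**
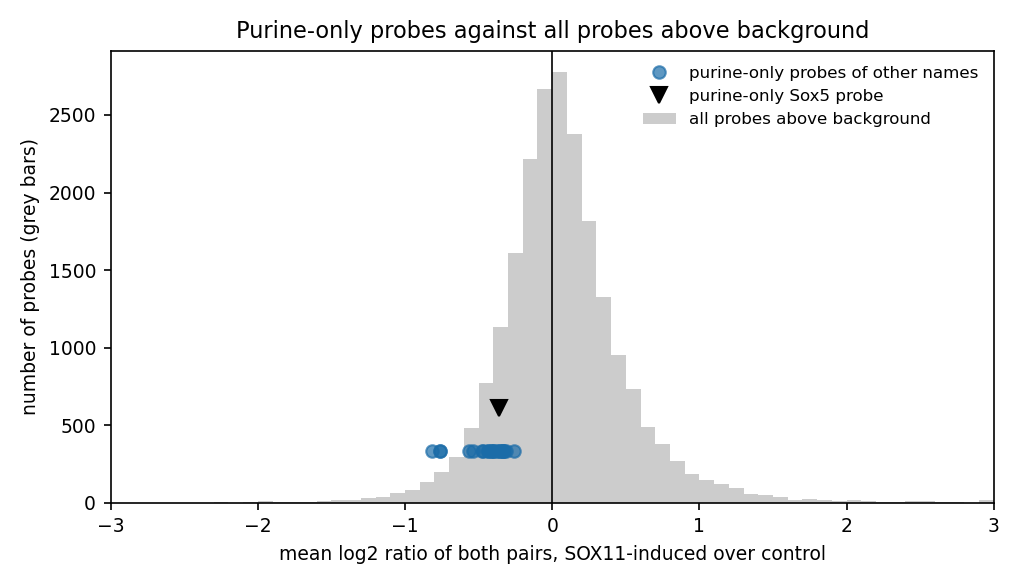
Mean log2 ratio of both pairs for the purine-only probes of other names (blue circles, height arbitrary) and for the first Sox5 probe (black triangle), over a histogram of the 21782 probes above background in bins of the same ratio (grey, left axis in probes; the last bar on the right also holds all higher values). The purine-only probes lie between -0.82 and -0.26, left of 0, and the Sox5 probe at -0.36 is among them.

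Sox6, a SOXD factor that works with SOX5 in cartilage and other tissues, had the highest mean of the 12 probes. Its probe (chr7:122615418-122615477) read 40.9 and 41.8 in the control channel, at background in both pairs. The SOX11 channel read 86.1 in pair 1 and 119 in pair 2, and only the latter was well above background. The log2 ratios were 0.45 and 0.87, with a mean of 0.66 ± 0.30 and a limma adjusted p of 0.0574. As the control channel was at background, the lowest signal well above background on each array stood in for it where higher. Against this the mean of both SOX11 channels, only 1 of which was measured above background, was 1.25-fold. That is no firm lower limit, since control readings at background could be brighter. In normalised log2 brightness, Lgr5 in the control of pair 1 was at background at 5.85, beside a SOX11 mean of 5.87 for Sox6. The ratio stayed above 0 under each alternative processing tried, between 0.37 with an offset of 50 and 1.85 with the scanner software's processed signals, with limma adjusted p from 0.0154 to 0.318. Under median centring it was 0.67, of which 0.17 remained relative to the shifted median, against 0.62 relative to the median after loess.

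Sox13, the remaining SOXD gene, known from gamma delta T cells among other tissues, was well above background in all channels. Its probe (chr1:135279099-135279158) read 83.3 and 112 in the control channel and 242 and 262 in the SOX11 channel. The log2 ratios were 0.78 and 0.20, so both pairs were higher in the SOX11-induced pup, pair 1 by more. The mean was 0.49 ± 0.41 (95% interval 0.09 to 0.89), at percentile 87.0 of the probes above background, with a limma adjusted p of 0.154. Of the leukocyte list, 5 of 6 genes were on the array and 4 were above background. None passed, beside 9.99% of all probes above background. The list's median log2 ratio was -0.24 and its summed normalised brightness 13781 and 4657 in the controls and 10468 and 3328 in the SOX11-induced pups. The part of leukocytes in the Sox13 ratios was not tested.

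Of 11 cartilage genes known as targets of SOX5, SOX6 and SOX9, only Comp was above background on both arrays and 9 were not above in any channel. None passed the adjusted p, beside 4.39% of all probes tested. The melanocyte and Schwann cell list, cells in which Sox5 is known to be made, had 9 of 12 genes above background. None of these genes passed the adjusted p, beside 9.99% of all probes above background. The list's median log2 ratio was 0.37 in pair 1 and -0.09 in pair 2.

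Sox9, the SOXE factor of the outer root sheath and follicle stem cells, was printed in 10 spots on each array. The probe (chr11:112648809-112648868) read 157 in pair 1 and 379 in pair 2 in the control channel, and 372 and 559 in the SOX11 channel. The log2 ratios were 0.29 and -0.60, so the pairs pointed in opposite directions. Over the 10 spots, flagged ones included here, the ratios ran from 0.19 to 0.50 in pair 1 (SD 0.0891). In pair 2 they ran from -0.68 to -0.47 (SD 0.0708). The spots of the 2 pairs did not overlap, and the spread between spots was small beside the difference between pairs. Spots of an array share the labelled RNA and show the precision of the reading only.

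The mean of Sox9 was -0.15 ± 0.63 (95% interval -0.62 to 0.32, limma adjusted p = 0.719), and its SD between pairs was at percentile 97.1 of the probes above background. Under median centring the mean was 0.37, or -0.13 relative to the shifted median. A direction of Sox9 common to both pairs was not seen in these data.

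The outer root sheath and bulge list had 10 of 13 genes above background, and their median log2 ratios were 0.14 in pair 1 and -0.32 in pair 2 (-0.08 and -0.16 over all 13). None passed higher and 2 passed lower, beside 2.99% and 1.41% of all probes tested. Among all probes above background, 9.99% passed in either direction. Krt15, a keratin of bulge and basal cells, had a mean log2 ratio of -1.03 ± 0.07 (limma adjusted p = 0.00573). Lgr5, a receptor of follicle stem cells, had an adjusted p of 0.0212 in limma, but its SOX11 channel lay at background in both pairs and its control channel in 1, so no fold is given. The summed normalised brightness of this list was 86611 and 88454 in the controls and 88301 and 71080 in the SOX11-induced pups. The part of the follicle content of the peeled sheets in the Sox9 ratios was not tested.

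**Figure D4:**
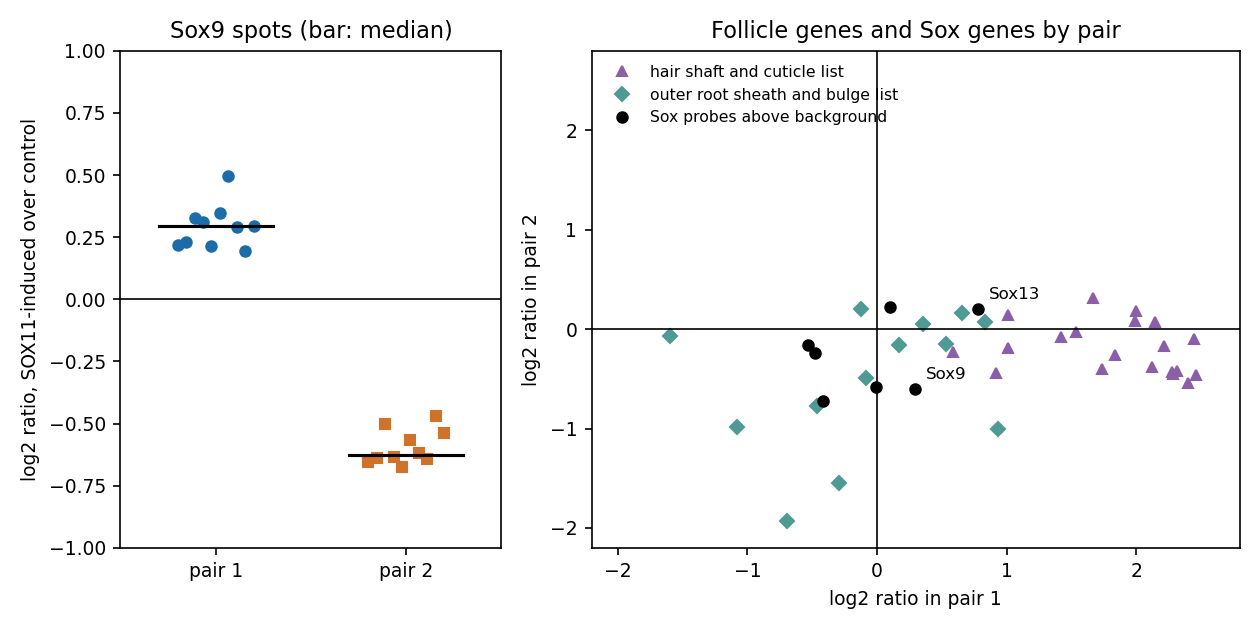
Left, log2 ratio of SOX11-induced over control for the 10 Sox9 spots of each array, flagged ones included. Circles are pair 1, squares pair 2 and the bar the median, with no overlap between the pairs. Right, log2 ratio in pair 1 (horizontal) against pair 2 (vertical) for the hair shaft and cuticle list (triangles), the outer root sheath and bulge list (diamonds) and the 7 Sox probes above background (black circles). The 20 hair shaft genes lie right of 0 in pair 1 and around 0 in pair 2, and Sox9 lies right of 0 and below it.

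Of the SOXF genes, Sox7 was well above background in all channels and Sox18 in none. The Sox7 probe (chr14:64569419-64569478) read 603 and 501 in the control channel and 846 and 1011 in the SOX11 channel. Its log2 ratios were -0.53 and -0.15 (mean -0.34 ± 0.27, 95% interval -0.71 to 0.02, limma adjusted p = 0.262). Both lay below 0, but under median centring the mean was 0.24, or -0.26 relative to the shifted median. Sox18 (chr2:181404789-181404848) read 29.5 and 29.4 in the control channel and 55.4 and 63.6 in the SOX11 channel, beside a local background of 55.5 and 59.0. Its log2 ratios of 0.20 and 0.49 (limma adjusted p = 0.246) are those of a probe at background.

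The endothelial list, cells for which SOXF factors are best known, had 8 of 14 genes above background, among them Kdr, Vwf, Pecam1, Flt1, Eng and Esam, while Cdh5, Tie1, Tek and Cldn5 were among the 6 not above it in any channel. Its summed normalised brightness was 1478 and 1632 in the controls and 1371 and 1379 in the SOX11-induced pups, with a median log2 ratio of 0.00. Egfl7, a secreted protein of endothelial cells, was the only gene of the list to pass, beside 9.99% of all probes above background. Its mean log2 ratio was -1.01 ± 0.30 (limma adjusted p = 0.0101). The part of endothelial cells in the Sox7 ratios was not tested. Of the dermal papilla and fibroblast list, 5 of 14 genes were above background, and its median log2 ratio over all 14 was 0.20. Over the 5 above background the median was -0.17 in pair 1 and 0.77 in pair 2. Dcn, a matrix proteoglycan of fibroblasts, was the only gene of that list to pass, beside the same 9.99%, at -0.79 ± 0.24 (limma adjusted p = 0.0260). The collagen genes Col1a1, Col1a2 and Col3a1 had means of 0.37, 0.49 and 0.37 and did not pass, with ratios below 0 in pair 1 and above 0 in pair 2, and Vim had 0.10.

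Sox15, the SOXG gene, studied in muscle cells in particular, was well above background in all channels. Its probe (chr11:69469212-69469271) read 92.4 and 108 in the control channel and 184 and 253 in the SOX11 channel. The log2 ratios were 0.10 and 0.23, close to each other and to 0, with a mean of 0.16 ± 0.09 (95% interval -0.18 to 0.50, limma adjusted p = 0.583). Under median centring the mean was 0.55, or 0.05 relative to the shifted median.

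The SOXC genes and the rest of the family were measured on the same arrays. Of the SOXC genes, Sox4 was well above background, and its probes disagreed in direction. A probe had log2 ratios of 3.49 and 3.68 (limma adjusted p = 1.69e-05). The others had means of -1.42 and -1.39 and passed as well (limma adjusted p = 0.000986 and 0.00195). Sox12 and both Sox11 probes were not above background in any channel, so the Sox11 probes give no check of the genotype labels. The other 8 Sox genes, Sry included, had 1 gene above background (Sox10, a factor of pigment and Schwann cells). None of the 8 passed the adjusted p, beside 4.39% of all probes tested. The median log2 ratio of these 8 genes was 0.12, those at background included.

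Of 15 genes for known partners and cofactors of Sox proteins, 10 were above background, with a median log2 ratio of 0.16 over all 15. Past the adjusted p were 1 higher and 1 lower, beside 2.99% and 1.41% of all probes tested. Of all probes above background, 9.99% passed in either direction. Ctbp2, a corepressor, had a mean log2 ratio of 1.20 ± 0.18 (limma adjusted p = 0.00304). Pou3f1, a POU factor of epidermal cells, had -1.12 ± 0.21 (limma adjusted p = 0.00478). The tissue label was checked on 12 keratinocyte markers, all above background in both channels. Only Col17a1 of them, a hemidesmosome collagen, passed, beside 9.99% of all probes above background, at -1.10 ± 0.31 (limma adjusted p = 0.00669). Under median centring Ctbp2, Pou3f1, Krt15, Lgr5, Dcn, Egfl7 and Col17a1 kept their direction, but Krt15, Pou3f1, Dcn and Col17a1 no longer passed (limma adjusted p = 0.216, 0.0614, 0.290 and 0.0615). Relative to the shifted median these lay at -0.77, -0.95, -0.75 and -0.98. The log2 ratios of the arrays correlated with r = 0.529 over all probes, a description across probes that share both libraries.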

How the data were processed

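Scanner files of 2 two-colour Agilent arrays, 1 per littermate pair, were used. Per the file headers they were made with Agilent Feature Extraction 10.7.3.1, with positions on mm9, and the intensity values the authors deposited are unnormalized spot and local background brightness, beside processed signals of the software. The deposited log10 ratio column was not used. The deposited series table holds log2 ratios, which correlated with those used here at r = 0.961 and 0.953 and had column medians of 0.01 and 0.00, and served as an alternative. In R 4.3.3 with limma 3.58.1, intensities were corrected by normexp (offset 16, which draws ratios of dim probes towards 0) and by loess within each array. Flagged spots (194 and 186) were left out, except in the range and SD over the Sox9 spots, and spots of a probe averaged. For the normalised brightness, the average brightness of the dyes was also brought to a common distribution across the arrays (limma's Aquantile method). An intercept was fitted to the 2 log2 ratios of 55676 probes with eBayes, and p-values were adjusted by Benjamini-Hochberg over all of them. The scripts were tested on simulated data, on which the spread shared between probes came out tighter than simulated, so adjusted p-values may be too small and intervals too narrow. A probe counted as above background in a channel when at least 0.5 of its spots were marked so. Of 59305 spots per array, 37.5% to 42.6% per channel were. The fold for Sox6 set the mean of both SOX11 channels against a stand-in for the control on each array. This was the lowest signal well above background or the control signal, whichever was higher, so the fold is not a strict lower limit.

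The members and gene lists were chosen with earlier results of these data known. Named were all member probes, the SOXC genes and, per list, the 2 genes with the largest change past the adjusted p, by the brightest probe of a gene; other genes are named only for their state against background or as examples. Both arrays lie on 1 slide of 1 scan. The number of arrays limits the precision. The exon or UTR in which a probe lies was not determined.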

Additional observations from a re-analysis of the deposited data

How the results depend on the processing

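Of 91 alternative values of single Sox probes, 71 kept their direction and their side of the adjusted p of 0.05, 9 passed it and 11 changed sign. Median centring in place of loess gave 0.38 for the first Sox5 probe, -0.17 for the second, 0.24 for Sox7, 0.37 for Sox9 and 0.14 for the second Sox21 probe. Median spot brightness gave -0.0604 for the second and 0.0608 for the third Sox5 probe, the series table -0.0607 and 0.0588, and the processed signals -0.0320 for the second Sox5 probe and -0.0447 for Sox18. Of the 12 probes, 1 passed with an offset of 50 (Sox21, -0.51, adjusted p = 0.0220). With an intensity trend and robust prior 3 passed (the first Sox5 probe at 0.0329, Sox6 at 0.0275 and Sox21 at 0.0169). Under median centring 5 passed (Sox2 at 0.0457, the third Sox5 probe at 0.0482, Sox6 at 0.0154, Sox13 at 0.00376 and Sox15 at 0.0233). Over all probes these settings passed 7.91% (4405), 8.33% (4639) and 33.2% (18485). The processed signals passed and called 0 of all probes in limma (9764 at an unadjusted p of 0.05), and median centring called 756, 98.7% of them higher against 81.0% of the 252. The cause was not tested. The filter on dim probes gave no value for Sox probes below it. Leaving out a replicate leaves the other pair's value, with no test (for Sox9, -0.60 or 0.29). The fit is itself paired, each ratio being a difference within a pair, so no further replicate block could be fitted. Array number and background limit the 5 probes not above background in every channel.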
